A study of Rattus norvegicus with 18 samples.

Results

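Cd3g, Cd4, Cd79b, Prf1 and Gzma are 5 genes read mainly in T cells, B cells and cytotoxic lymphocytes, and their levels were followed in whole rat lung after cigarette smoke. They were chosen with earlier results of these data known and found in the table by gene symbol, and are 5 of 4616 named genes with a value and 5 of 4016 genes tested. Rats breathed through the nose either conditioned fresh air or diluted smoke, whose total particulate matter was 300 µg per litre at the low dose and 600 at the high dose, over 2, 7 or 13 weeks. Lungs were collected once exposure had ended, 2, 6 or 20 hours later, and the 18 samples cover 9 pairings of weeks and hours at either dose. Each sample was 1 pool of RNA from 4 smoke-exposed rats (Cy5) read on 2-colour PIQOR arrays against a pool of 4 air-exposed rats (Cy3), and the low and high sample of a combination shared that air pool. The sources used here do not give strain, sex or age of the rats. Air-exposed controls went through the same kind of chambers as exposed rats. A condition had no replicate pool, so tests of a mean against 0 use the spread between combinations. That spread holds both error between pools and real change with time. Tests over hours and weeks fit both factors and use the spread that is left. All values below are log2 ratios, read as smoke over air from the dye labels. A log2 ratio of 0 is the level in air. Ratios hold no level of a gene, so the labelled tissue could not be checked against the levels of lung markers.

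T cells recognise antigen through a receptor whose signal is carried into the cell by the CD3 chains, and Cd3g encodes CD3 gamma. Cd4 encodes the co-receptor of helper T cells, which binds MHC class II, and in the rat it is also made by monocytes and macrophages. Cd79b encodes the Ig beta chain that signals for the B cell receptor. Prf1 (perforin) and Gzma (granzyme A) are granule proteins of cytotoxic T cells and natural killer (NK) cells: perforin opens the target cell membrane and granzymes enter through it. The lung holds lymphocytes in its tissue and its vessels, so whole-lung RNA carries all of these transcripts. In such bulk tissue, fewer cells of a type and less RNA per cell cannot be told apart. The constant part of a dye effect cannot be told apart from smoke against air either, but it cancels when the doses are compared.

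The promoters are shown because Prf1 and Gzma, the pair of granule genes, had the most similar profiles of the 5 genes, while Cd3g followed other T cell genes. RefSeq sequence of assembly GRCr8 was at hand for these 3 of the 5 genes, and Cd4 and Cd79b are named only. Each line gives the 250 bases before the annotated start, 5′ to 3′ on the gene's strand, with capitals where a searched motif matched on either strand. The motifs were GGAAGT (ETS factors), TGTGGT (RUNX factors), GTGTGA (T-box factors) and TCCC followed by GGGA with 2 bases between them (EBF factors), and none of the matches printed overlap.
Cd3g (chr8:54183919-54184168, minus strand): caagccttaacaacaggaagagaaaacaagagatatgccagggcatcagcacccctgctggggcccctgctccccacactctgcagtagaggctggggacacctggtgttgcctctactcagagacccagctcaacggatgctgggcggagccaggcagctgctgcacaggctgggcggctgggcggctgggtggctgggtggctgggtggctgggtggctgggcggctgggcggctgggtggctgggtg
Prf1 (chr20:29788790-29789039, plus strand): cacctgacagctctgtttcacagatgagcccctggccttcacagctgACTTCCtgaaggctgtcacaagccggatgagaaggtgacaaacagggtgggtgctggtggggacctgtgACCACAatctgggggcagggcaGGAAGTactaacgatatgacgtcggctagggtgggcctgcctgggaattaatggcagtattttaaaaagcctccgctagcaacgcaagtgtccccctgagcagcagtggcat
Gzma (chr2:46485697-46485946, minus strand): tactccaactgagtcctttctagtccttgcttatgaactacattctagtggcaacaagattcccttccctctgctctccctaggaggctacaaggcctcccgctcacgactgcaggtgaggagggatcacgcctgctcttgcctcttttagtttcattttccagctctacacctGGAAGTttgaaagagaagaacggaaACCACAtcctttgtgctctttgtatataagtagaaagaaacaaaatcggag
The Prf1 window held 2 ETS matches, from 203 to 198 and from 112 to 107 bases before the start, and 1 RUNX match from 134 to 129 bases. The Gzma window held 1 ETS match from 76 to 71 bases before the start and 1 RUNX match from 51 to 46 bases. The Cd3g window held no match and ended in repeats of ggctggg, with 66.4% G and C against 56.0% for Prf1 and 46.4% for Gzma. Of 33469 rat promoter windows of this length, 19.2% held the ETS letters, 14.5% the RUNX letters, 11.6% the T-box letters and 0.7% the EBF letters. A match is a description of the letters and not a site of binding, and a link of the matches to the profiles was not tested.

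At the high dose all 5 genes fell against air, by 1.31-fold (Cd4) to 1.52-fold (Cd79b). The adjusted p-values from limma lay between 0.00134 and 0.00531. By an exact sign-flip permutation test 2 of the 5 passed, Cd3g and Prf1 (adjusted p = 0.0487), and Cd4, Cd79b and Gzma did not (adjusted p = 0.0619). The exact test called 130 of all 4016 genes lower. Its p has a lowest possible value, reached only when all 9 values lie on the same side of air. Cd3g and Prf1 were at that value, and Cd4, Cd79b and Gzma each had 1 sample above air. Among all genes tested, 7.64% fell and 9.56% rose at this dose by limma. Since the 5 genes were chosen with such results known, their counts are a description beside these shares. Of the 45 values of the 5 genes at the high dose, 42 lay below air, and all 5 genes lay below air in 6 of the 9 samples. Each of the 5 was below air in at least 8 of 9 samples, as were 9.61% of the 3757 genes with all 9 values. Ordered from the most negative mean of the 4016 genes, Cd79b was at place 7, Prf1 at 8, Cd3g at 15, Gzma at 19 and Cd4 at 54. At the low dose 1 of the 5 fell, Cd4, against 1.44% of all genes tested (3.51% rose), and 32 of 45 values lay below air.

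**Figure D1:**
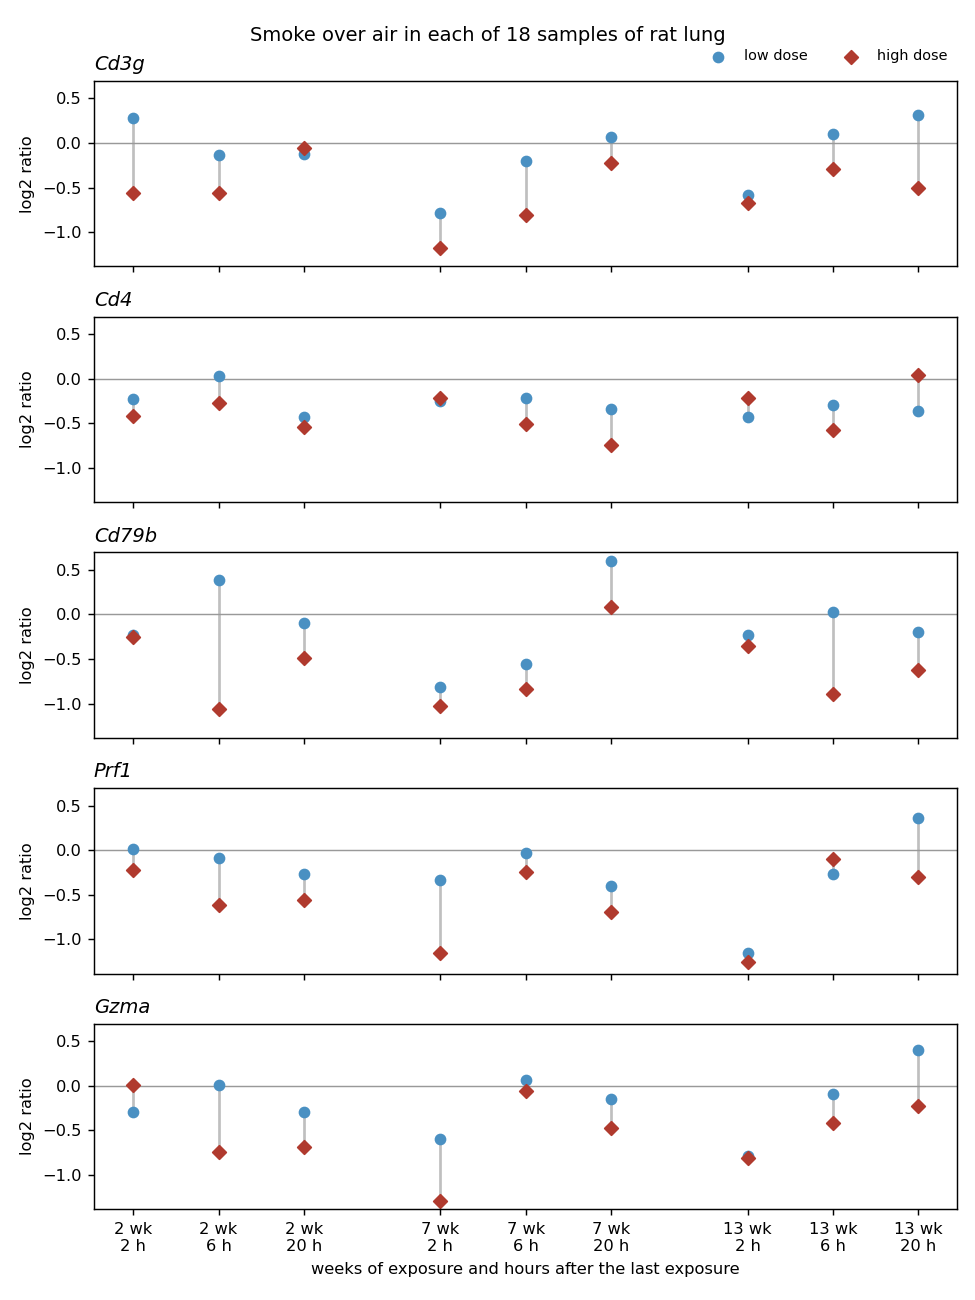
Log2 ratio of smoke over air (vertical axis) of the 5 genes in each of the 18 samples, by weeks of exposure and hours after the last exposure, with low dose as circles and high dose as diamonds joined by a line where they share an air pool. The high-dose points of Cd79b lie below the low-dose points in 9 of 9 combinations, those of Cd3g, Prf1 and Gzma in 8 of 9 and those of Cd4 in 6 of 9.

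Cd3g was below air in every high-dose sample. At 2, 6 and 20 hours its high-dose log2 ratios were -0.56, -0.56 and -0.06 after 2 weeks, -1.18, -0.81 and -0.23 after 7 weeks, and -0.67, -0.29 and -0.51 after 13 weeks. The low-dose log2 ratios in the same order were 0.28, -0.14 and -0.12, then -0.79, -0.20 and 0.07, then -0.58, 0.10 and 0.31. The lowest sample at both doses was that taken 2 hours after 7 weeks of exposure, and the ranges of the doses overlapped. The mean at the high dose was -0.54 ± 0.09 (SE, n = 9), a 1.46-fold fall (95% interval of the log2 mean -0.74 to -0.34, adjusted p = 0.00134). At the low dose it was -0.12 ± 0.10 with 5 of 9 samples under the air level (adjusted p = 0.58). With 1 combination left out the low-dose mean lay between -0.17 and -0.04, the latter without 7 weeks and 2 hours.

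Cd4 was the member that fell at both doses. At 2, 6 and 20 hours its high-dose log2 ratios were -0.42, -0.27 and -0.54 after 2 weeks, -0.22, -0.51 and -0.74 after 7 weeks, and -0.22, -0.58 and 0.04 after 13 weeks. The low-dose log2 ratios were -0.23, 0.03 and -0.43, then -0.25, -0.22 and -0.34, then -0.43, -0.29 and -0.36. One sample at each dose lay slightly above air, and the values spread less than those of the other 4 genes, with an SD of 0.24 at the high dose and 0.14 at the low dose. The mean was -0.38 ± 0.07 (SE, n = 9) at the high dose, a 1.31-fold fall (adjusted p = 0.00253), and -0.28 ± 0.06 at the low dose, a 1.21-fold fall (95% interval -0.40 to -0.16, adjusted p = 0.00859). The low-dose fall of Cd4 passed in every fit that left out 1 combination, but not without the 7 week samples (adjusted p = 0.0948), the 13 week samples (0.158), the 2 hour samples (0.098) or the 20 hour samples (0.135). Macrophage markers moved in both directions: 9 of 14 tested rose and 2 fell at the high dose (median log2 0.49). Lgals3 (1.28 ± 0.10, adjusted p = 2.84e-06) and Cd68 (1.12 ± 0.10, adjusted p = 4.65e-06) were among those that rose. The 2 that fell were Adgre1, the gene of the F4/80 antigen (-0.72 ± 0.06, under air in 9 of 9, adjusted p = 4.65e-06), and Csf1r, the receptor for macrophage colony-stimulating factor (-0.19 ± 0.06, adjusted p = 0.0377). Of the 14, 8 rose and 1 fell at the low dose, and the latter was Adgre1 (-0.45 ± 0.07, adjusted p = 0.0021). The mean over the 14 ran from 0.19 to 0.43 in the low-dose samples and from 0.31 to 0.61 in the high-dose samples. Their part in the values of Cd4 was not tested.

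Cd79b fell at the high dose and was lower there than at the low dose in every pair. At 2, 6 and 20 hours its high-dose log2 ratios were -0.25, -1.06 and -0.49 after 2 weeks, -1.03, -0.84 and 0.08 after 7 weeks, and -0.36, -0.89 and -0.62 after 13 weeks. The low-dose log2 ratios were -0.23, 0.39 and -0.10, then -0.81, -0.56 and 0.60, then -0.23, 0.03 and -0.20. The sample taken 20 hours after 7 weeks was the highest at both doses. The mean was -0.61 ± 0.10 (SE, n = 9) at the high dose, a 1.52-fold fall (95% interval -0.83 to -0.38, adjusted p = 0.00141). Its low-dose mean was -0.12 ± 0.11 with 6 of 9 samples below air (adjusted p = 0.618). This mean was -0.04 without the combination of 7 weeks and 2 hours and -0.21 without that of 7 weeks and 20 hours. Each of the 5 genes was read by 1 probe listed in 2 rows with equal values, and the second row of Cd79b was empty in 2 low-dose samples, at 6 hours of 2 weeks and 2 hours of 7 weeks.

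Prf1 was below air in every high-dose sample. At 2, 6 and 20 hours its high-dose log2 ratios were -0.22, -0.62 and -0.56 after 2 weeks, -1.15, -0.25 and -0.69 after 7 weeks, and -1.25, -0.10 and -0.30 after 13 weeks. The low-dose log2 ratios were 0.01, -0.09 and -0.27, then -0.34, -0.03 and -0.40, then -1.15, -0.27 and 0.36. In the samples taken 2 hours after 13 weeks Prf1 was at place 2 of 3894 genes from the lowest value at the low dose and at place 3 of 3943 at the high dose. The mean was -0.57 ± 0.11 (SE, n = 9) at the high dose, a 1.49-fold fall (95% interval -0.81 to -0.34, adjusted p = 0.00313). Its low-dose mean was -0.24 ± 0.11 with 7 of 9 samples below air (adjusted p = 0.242). This mean was -0.13 without the combination of 13 weeks and 2 hours, whose value stood far from the others. Without that of 13 weeks and 20 hours it was -0.32.

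Gzma followed Prf1 closely. At 2, 6 and 20 hours its high-dose log2 ratios were 0.01, -0.74 and -0.69 after 2 weeks, -1.29, -0.06 and -0.47 after 7 weeks, and -0.81, -0.42 and -0.23 after 13 weeks. The low-dose log2 ratios were -0.29, 0.01 and -0.29, then -0.60, 0.06 and -0.15, then -0.79, -0.09 and 0.40. The deepest values at both doses came from the 2 hour samples of 7 and 13 weeks, as for Prf1 at the high dose. At the low dose Prf1 was lower at 20 hours of 7 weeks (-0.40) than at 2 hours (-0.34). The highest low-dose value came from 20 hours of 13 weeks, as for Prf1. The mean was -0.52 ± 0.11 (SE, n = 9) at the high dose, a 1.44-fold fall (95% interval -0.76 to -0.29, adjusted p = 0.00531), and without the 13 week samples it was -0.54 over the remaining 6 samples and did not pass (adjusted p = 0.0507). Its low-dose mean was -0.19 ± 0.10 with 6 of 9 samples below air (adjusted p = 0.304). This mean was -0.12 without the combination of 13 weeks and 2 hours and -0.27 without that of 13 weeks and 20 hours.

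**Figure D2:**
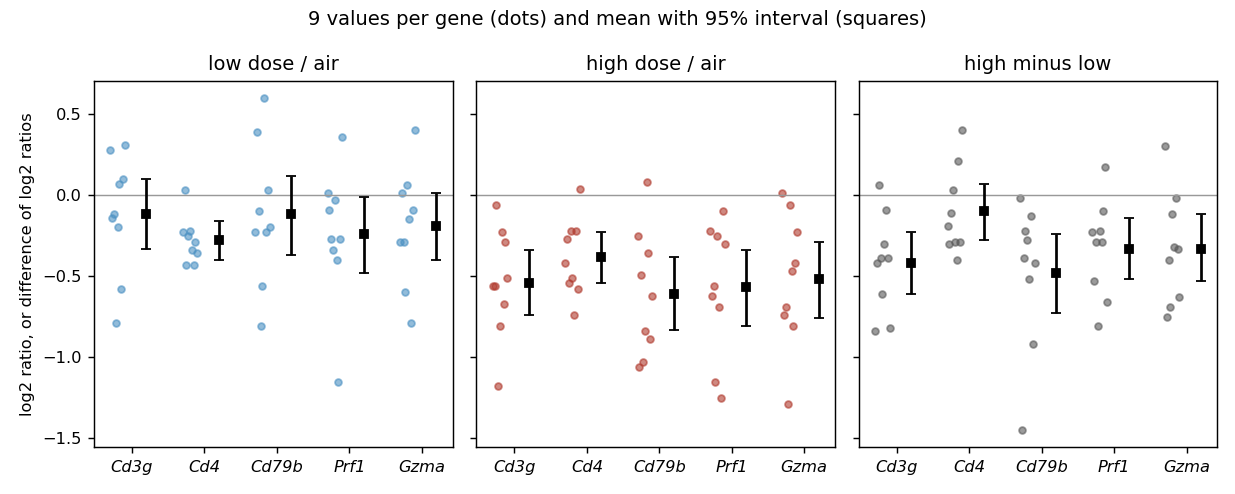
Log2 ratio of the low dose over air, of the high dose over air, and the difference high minus low (vertical axis) for each gene, with 9 values as dots and their mean with its 95% interval as a square with bars. At the high dose the intervals of all 5 genes lie below 0. In the difference the interval of Cd4 (-0.28 to 0.07) holds 0 and the other 4 do not.

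The comparison of the doses asks whether doubling the smoke concentration lowered these genes further. After adjustment none of the 5 differences passed, against 0.0249% of all genes tested (1 of 4016) that were lower at the high dose by this rule. The difference, high minus low, was -0.42 ± 0.09 for Cd3g (95% interval -0.61 to -0.23, adjusted p = 0.0603) and -0.48 ± 0.12 for Cd79b (-0.73 to -0.24, adjusted p = 0.0889). It was -0.33 ± 0.09 for Prf1 (-0.52 to -0.14, adjusted p = 0.148) and -0.33 ± 0.10 for Gzma (-0.53 to -0.12, adjusted p = 0.197). These 4 genes were lower at the high dose in 8 or 9 of 9 pairs, as were 2.7% of the 3560 genes measured in all 18 samples. They also had an unadjusted p under 0.05, as did 3.88% of all genes tested in this direction. The difference for Cd4 was -0.10 ± 0.08 (-0.28 to 0.07, adjusted p = 0.746), lower at the high dose in 6 of 9 pairs. The interval for Cd4 therefore leaves room for a further fall of up to 0.28 and for a rise of up to 0.07. The Cd3g difference passed without the combination of 2 weeks and 20 hours (adjusted p = 0.0298) or of 13 weeks and 2 hours (adjusted p = 0.0369), and when only genes measured in all 18 samples were tested (adjusted p = 0.0346).

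Single pairs ranged widely around these means. The difference for Cd79b ran from -1.45, 6 hours after 2 weeks, to -0.02, with a median of -0.39. Without the 2 low-dose values that its second row lacks, which hold the first of these pairs, the mean difference was -0.38 (adjusted p = 0.133), and without that pair alone it was -0.36. That for Cd3g ran from -0.84 to 0.06 (median -0.39), for Prf1 from -0.81 to 0.17 (median -0.29) and for Gzma from -0.75 to 0.30 (median -0.33). For Cd4 the differences ran from -0.40 to 0.40 (median -0.19), and the highest was at 20 hours of 13 weeks. Whether the dose difference depended on hours or on weeks was tested over 3994 genes, and 0% of them passed in either test, none of the 5 among them. At an unadjusted p under 0.05, 142 genes passed for hours and 177 for weeks. Of the 5 genes this held for Cd79b over hours, with mean differences of -0.12 at 2 hours, -0.88 at 6 hours and -0.44 at 20 hours (adjusted p = 1).

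Time after the last exposure is the kinetic question of the study, and it was read on the mean of low and high dose in each of the 9 air pools. None of the 5 genes passed the F test over hours, against 1.6% of 3994 genes. The mean of Cd3g was -0.58 at 2 hours, -0.32 at 6 hours and -0.09 at 20 hours (adjusted p = 0.252). At 20 hours its 3 pools lay between -0.10 and -0.08, above the 3 pools at 2 hours, which lay between -0.985 and -0.14. The difference between 20 and 2 hours was 0.49 ± 0.15 (SE, adjusted p = 0.23).

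The granule genes had their lowest mean at 2 hours as well. Prf1 stood at -0.68, -0.23 and -0.31 at 2, 6 and 20 hours (adjusted p = 0.466), and Gzma at -0.63, -0.21 and -0.24 (adjusted p = 0.431). The 2 hour means rested on the pools of 7 and 13 weeks, at -0.745 and -1.20 for Prf1 and -0.945 and -0.80 for Gzma, while the 2 week pool was at -0.105 and -0.14. Without the combination of 2 weeks and 2 hours, Cd3g (adjusted p = 0.0431) and Gzma (adjusted p = 0.0411) passed over hours. Cd79b had means of -0.48, -0.49 and -0.12 (adjusted p = 0.511). Cd4 had means of -0.30, -0.31 and -0.40 (adjusted p = 0.855), so its lowest mean was at 20 hours. Leaving out 7 weeks and 2 hours narrowed the range over hours from 0.49 to 0.29 for Cd3g and from 0.42 to 0.26 for Gzma, and leaving out 13 weeks and 2 hours narrowed that of Prf1 from 0.46 to 0.20. The range of Cd79b went from 0.37 to 0.14 without 7 weeks and 20 hours. These ranges are of plain means, so with 1 combination left out the hours no longer hold the same weeks. Log2 ratios of all genes had an SD over genes of 0.288 to 0.353 in the 2 hour samples and of 0.207 to 0.332 at the later hours. With all samples scaled to 1 spread, the range over hours was 0.30 for Prf1, 0.29 for Gzma and 0.41 for Cd3g. Without the 2 hour samples all 5 genes still fell at the high dose, with means from -0.41 (Cd3g) to -0.64 (Cd79b) and adjusted p-values between 0.00894 and 0.0194.

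**Figure D3:**
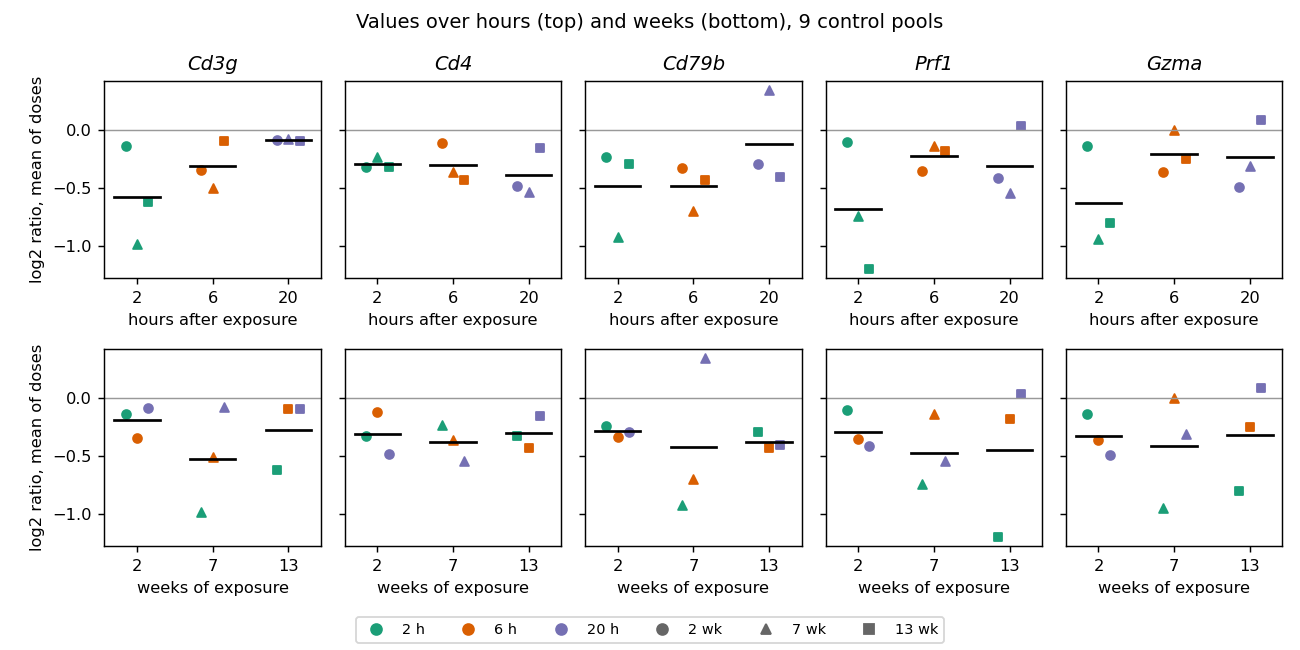
Log2 ratio of smoke over air as the mean of low and high dose in each of 9 air pools (vertical axis), against hours after the last exposure (top) and weeks of exposure (bottom), with colour for hours, shape for weeks and a bar for the mean of 3 pools. Cd3g, Prf1 and Gzma have their lowest mean at 2 hours, where the pools spread most, and the means over weeks span 0.33 for Cd3g and 0.07 to 0.18 for the other 4 genes, with all 9 pools included.

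Weeks of exposure gave no call among the 5 genes. None passed the F test over weeks, with adjusted p-values from 0.93 to 0.98, against 0.125% of all genes. The means at 2, 7 and 13 weeks were -0.19, -0.52 and -0.27 for Cd3g and -0.29, -0.43 and -0.38 for Cd79b. They were -0.29, -0.48 and -0.45 for Prf1, -0.33, -0.42 and -0.32 for Gzma, and -0.31, -0.38 and -0.31 for Cd4. These means take both doses together: after 2 weeks the low-dose mean was 0.01 for Cd3g and 0.02 for Cd79b, and the high-dose mean -0.39 and -0.60. The range over weeks rested in part on single combinations. Without 7 weeks and 20 hours it went from 0.33 to 0.55 for Cd3g and from 0.14 to 0.52 for Cd79b, and without 13 weeks and 2 hours from 0.18 to 0.40 for Prf1 and from 0.10 to 0.33 for Gzma. These ranges are of plain means, so with 1 combination left out the weeks no longer hold the same hours. Over all genes, 638 had an unadjusted p under 0.05 over hours and 231 over weeks.

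Among the 5 genes, Prf1 and Gzma had the closest profiles. Over the 9 air pools their means correlated with Pearson's r = 0.88 (exact permutation p = 0.00157, adjusted 0.0157 over 10 pairs) and Spearman's rho = 0.92 (exact permutation p = 0.00131, adjusted 0.0131). Without the 2 pools farthest from the median r was 0.83, and over the 6 pools at 6 and 20 hours it was 0.84. Cd3g and Gzma had r = 0.69 (exact permutation p = 0.0412, adjusted 0.199), which rested on the 2 farthest pools: r was -0.27 without them. Cd3g and Cd79b had r = 0.67 (exact permutation p = 0.0598, adjusted 0.199). Cd4 had r from -0.49 to 0.11 with the other 4 genes, and no pair but Prf1 with Gzma passed after adjustment. The 9 pools are different combinations of weeks and hours and not replicates, though the permutation treats them as exchangeable. Both genes of a pair were also read against the same air pools. What the correlations owe to time or to the air pools was not tested.

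**Figure D4:**
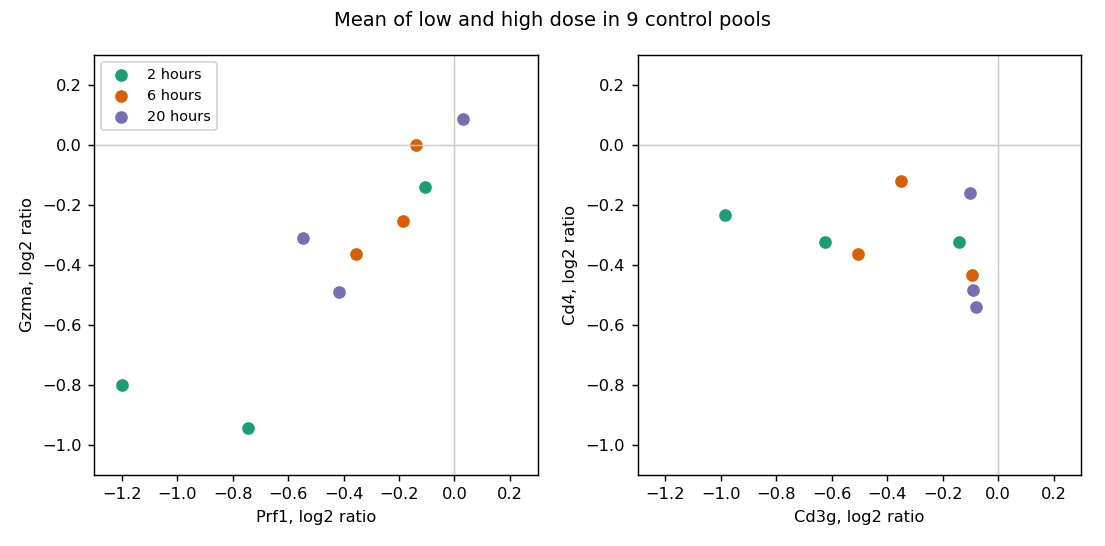
Mean log2 ratio of low and high dose in each of 9 air pools, for Gzma against Prf1 (left) and Cd4 against Cd3g (right), coloured by hours after the last exposure. Gzma follows Prf1 over the whole range (r = 0.88, and 0.84 over the 6 pools at 6 and 20 hours), while Cd4 against Cd3g has r = -0.37.

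The genes most like each member were looked up over all 18 samples, by Pearson's r among 3559 genes, as a description of samples that share 9 air pools. Cd3g was closest to Cd3d, another CD3 chain of the same receptor (r = 0.88), to Coro1a, a leukocyte actin-binding protein (0.86), and to Lck, the kinase that starts T cell receptor signalling (0.84). Cd79b was closest to Ms4a1, which encodes the B cell antigen CD20 (0.79), then to Ang (0.77) and Cyp3a18 (0.75). Prf1 and Gzma were closest to each other (0.86). Prf1 was followed by Ube2d2b (0.82) and Herpud2 (0.80), and Gzma by the T cell and NK cell chemokine Ccl5 (0.84) and by Clcf1 (0.84). Cd4 was closest to Jup (0.71), Pak4 (0.71) and Mknk2 (0.69). Its r with the other 4 members lay between -0.08 and 0.09. The mean of the 5 members was closest to the leukocyte tetraspanin Cd37 (0.87), followed by Clcf1, Lck, Coro1a, Ccl5, Cd3d, Prkcb and Sipa1l1, with r from 0.78 to 0.82.

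The wider lymphocyte lists showed whether other genes of these cells moved as well. Over the T cell, B cell and cytotoxic lists together, 32 genes were tested, 16 fell and 3 rose at the high dose, with a median of -0.19 against 0.003 over all genes. Of all genes tested 7.64% fell and 9.56% rose. Without the 5 members 11 of 27 fell and 3 rose, with a median of -0.10. At the low dose 3 of the 32 fell and none rose (median -0.05), and between the doses none passed (median difference -0.12). Members and lists share the arrays, and the lists were drawn up with results of these data known.

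**Figure D5:**
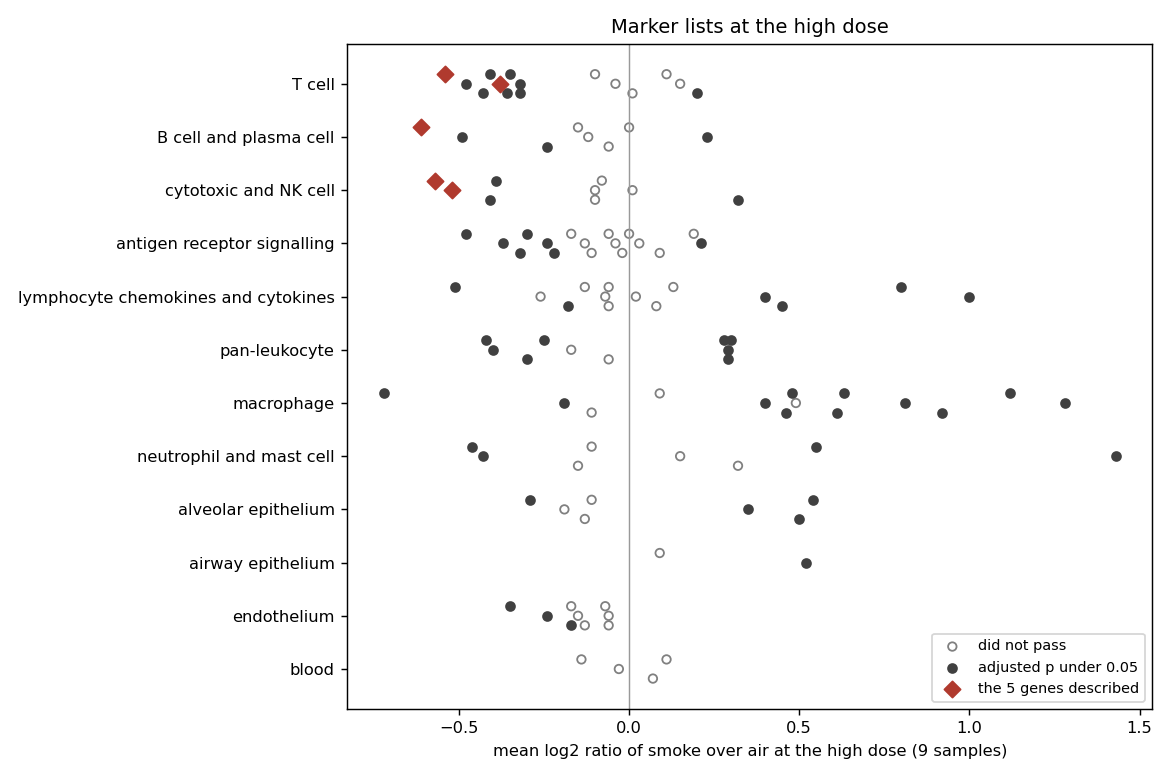
Mean log2 ratio of smoke over air at the high dose (horizontal axis, 9 samples) for each tested gene of 12 marker lists (rows), filled where the adjusted p was under 0.05 and as diamonds for the 5 genes. In the T cell list 9 of 15 genes fell and 1 rose, while in the macrophage list 9 of 14 rose and 2 fell.

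In the T cell list 9 of 15 tested genes fell at the high dose and 1 rose, with a median of -0.32. Besides Cd3g these were led by the kinase Lck (-0.48 ± 0.06 SE, under air in 9 of 9, adjusted p = 0.000203) and by Tbx21, the transcription factor of type 1 helper and cytotoxic cells (-0.43 ± 0.05, 9 of 9, adjusted p = 7.69e-05). The CD3 delta chain Cd3d was at -0.41 ± 0.10 (adjusted p = 0.00935) at the high dose and at -0.03 ± 0.08 (adjusted p = 0.905) at the low dose. The gene that rose was Cd27, a co-stimulatory receptor of the TNF receptor family (0.20 ± 0.06, adjusted p = 0.0275). At the high dose Cd247 (0.11), Zap70 (-0.04), Lef1 (0.15), Il2ra (-0.10) and Gata3 (0.01) did not pass (adjusted p from 0.0555 to 0.894). At the low dose 3 of the 15 fell: Cd4, Tbx21 (-0.30 ± 0.08, adjusted p = 0.0465) and Ctla4. Ctla4, an inhibitory receptor of T cells picked after its values were seen, fell like Cd4 at both doses, to -0.33 ± 0.05 (adjusted p = 0.00239) at the low and -0.36 ± 0.06 (adjusted p = 0.000676) at the high dose.

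In the B cell and plasma cell list 3 of 8 genes fell and 1 rose at the high dose (median -0.14). Of all genes tested, 7.64% fell and 9.56% rose there. With Cd79b fell Ms4a1 (-0.49 ± 0.11, under air in 9 of 9, adjusted p = 0.00577) and the B cell kinase Blk (-0.24 ± 0.07, adjusted p = 0.0372). Sdc1 rose (0.23 ± 0.06, adjusted p = 0.0205). It encodes syndecan-1, a marker of plasma cells that epithelium also makes. At the high dose Cd72 (-0.15), Pax5 (-0.0), Cxcr5 (-0.12) and Cd40 (-0.06) did not pass (adjusted p from 0.231 to 0.978). None of the 8 passed at the low dose.

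In the cytotoxic and NK cell list 4 of 9 genes fell and 1 rose at the high dose (median -0.10). With Prf1 and Gzma fell Klrd1, which encodes the NK cell receptor chain CD94 (-0.41 ± 0.07, under air in 9 of 9, adjusted p = 0.00157), and Ctsw, a cathepsin of cytotoxic cells (-0.39 ± 0.10, adjusted p = 0.0163). The gene that rose was Ctsc, the protease that activates granzymes and is also made by myeloid cells (0.32 ± 0.07, adjusted p = 0.00867). At the high dose Gzmc (0.01), Klrk1 (-0.10), Faslg (-0.08) and Il2rb (-0.10) did not pass (adjusted p from 0.252 to 0.94). None of the 9 passed at the low dose. The median difference between the doses was -0.33 with Prf1 and Gzma and -0.18 over the other 7 genes.

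Antigen receptor signalling genes moved in part with the receptors. Of 17 tested, 6 fell and 1 rose at the high dose (median -0.11), where 7.64% of all genes fell and 9.56% rose. Lck and Lat are also in the T cell list and Ptprc in the list for leukocytes in general. Their falls are therefore counted in both places. Those that fell were led by Lck, the protein kinase C gene Prkcb (-0.37 ± 0.05, adjusted p = 0.000341), the T cell adaptor Lat (-0.32 ± 0.07, adjusted p = 0.0104) and Ptprc, which encodes CD45 (-0.30 ± 0.08, adjusted p = 0.0239). The leukocyte GTPase Rac2 rose (0.21 ± 0.06, adjusted p = 0.0395). At the high dose Zap70 (-0.04), Syk (-0.13), Ptpn6 (0.03), Prkcq (-0.02) and Inpp5d (0.0) did not pass. Nor did Plcg1 (-0.17), Vav1 (0.19), Lcp2 (-0.11), Pik3cd (-0.06) or Pik3r1 (0.09). The adjusted p-values of these genes ran from 0.0971 to 0.979. None of the 17 passed at the low dose.

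Of 14 chemokines and cytokines that act on or come from lymphocytes, 4 rose and 2 fell at the high dose (median -0.02), where 9.56% of all genes rose and 7.64% fell. Ccl3 (1.00 ± 0.08, adjusted p = 2.84e-06), Tnfsf13 (0.80 ± 0.07, adjusted p = 3.84e-06) and Il18 (0.45 ± 0.07, adjusted p = 0.000367), all of which macrophages make, rose. Cx3cl1 rose as well (0.40 ± 0.10, adjusted p = 0.0143). Ccl5 fell (-0.51 ± 0.09, adjusted p = 0.00239), and it was lower at the high than at the low dose in 9 of 9 pairs (-0.39 ± 0.09, adjusted p = 0.0839). Il15 was the other that fell (-0.18 ± 0.06, adjusted p = 0.0451). At the low dose 2 rose, Ccl3 (0.64 ± 0.11, adjusted p = 0.00361) and Tnfsf13 (0.51 ± 0.08, adjusted p = 0.00247), and none fell.

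Genes listed for leukocytes in general moved in both directions at the high dose, 4 of 10 up and 4 down (median -0.11). Of all genes, 9.56% rose and 7.64% fell. How evenly these 10 genes are made by the kinds of leukocyte was not tested. Coro1a (-0.42 ± 0.08, adjusted p = 0.00235) and Cd37 (-0.40 ± 0.08, adjusted p = 0.00376) fell, while Laptm5, a lysosomal membrane protein, rose (0.30 ± 0.06, adjusted p = 0.00574). The lists for other cells of the lung and its blood were set beside the 5 genes. Of 9 endothelial genes 3 fell and none rose (median -0.15), with list means from -0.33 to -0.06 over the high-dose samples. Of 8 neutrophil and mast cell genes 2 rose and 2 fell, and their list mean ran from -0.67 to 0.83. Of 7 alveolar genes 3 rose and 1 fell, of 2 airway genes 1 rose, and none of the 4 blood genes passed (red cell and platelet genes, median 0.02). The part of any of these cell types in the falls of the 5 genes was not tested.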

How the data were processed

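The authors deposited log2 ratios of 18 two-channel samples. As a check of the scale, all 257 values under -1 (100%) matched ratios with 2 decimals on the log2 scale, and sample medians lie between -0.01 and 0.01. Per the labels, smoke-exposed RNA carried Cy5 and air RNA Cy3, with no dye swap named. That the ratio is Cy5 over Cy3 is not stated in the table. The sources used here do not give the scanner, the background correction or the normalization. Intensities were not used, so signal over background is unknown. Precision is limited by the number of pools, with 1 smoke pool per condition and 9 air pools.

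Rows with equal values were merged and probes of a gene averaged. Genes were tested where 6 or more of the 9 combinations had both doses, 4016 in all (3994 over hours and weeks), with limma 3.58.1 in R 4.3.3. Means of 9 ratios, or of 9 differences between doses that share an air pool, were tested against 0. Hours and weeks were tested on 9 pool means, each with the other as covariate. All tests are two-sided, with Benjamini-Hochberg adjustment over all genes and a threshold of 0.05. The scripts were tested on simulated data. The members and lists were chosen with earlier results of these data known. Named are the 5 members, up to 4 genes of each list past the threshold at the high dose with the largest mean, the 3 genes most like each member and the 8 most like their mean. Cd27, Ctsc, Rac2, Ctla4, Adgre1, Csf1r, Cx3cl1 and Il15 were added after their values were seen. Genes of the T cell, B cell, cytotoxic and antigen receptor signalling lists that did not pass at the high dose were added likewise. Promoters are RefSeq's for GRCr8. Alternatives covered filters, scaling, an exact test, a fold minimum, combinations or times left out and the pairing.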

Additional observations from a re-analysis of the deposited data

Results flagged for a closer look

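In 15 groups of 9 values (5 genes at the low dose, at the high dose and as differences), 2 samples lay far from the rest. Cd4 at the low dose, 6 hours after 2 weeks, stood at 0.03, which was 0.25 above the next value, or 0.543 of the range of the 9 samples, above Dixon's critical value. Prf1 at the low dose, 2 hours after 13 weeks, stood at -1.15, which was 0.75 below the next value, or 0.497 of the range, also above it. The high-dose sample of that air pool held Prf1 at -1.25, and both were read against 1 pool of air-exposed rats. Chance flags about 1 in 20 such groups.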

How the results depend on the processing

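The counts below are of the 5 genes called. At the high dose 5 were called, 2 by an exact sign-flip permutation test (adjusted p = 0.0619 for Cd4, Cd79b and Gzma) and 0 when a change of at least 1.5-fold was asked for. Over all genes the exact test called 130 lower at the high dose and the 1.5-fold minimum 1. At the low dose 1 was called, and 0 by the exact test, with the 1.5-fold minimum, or without the 7 week, 13 week, 2 hour or 20 hour samples. The exact test and the 1.5-fold minimum each called 0 of all 4016 genes lower at the low dose, so they cannot set Cd4 apart from other genes. Without the 2 hour samples the low-dose means of Cd3g and Cd79b turned to 0.00 and 0.03, and those of Gzma and Prf1 were -0.01 and -0.12. Between the doses 0 were called, 1 among genes with a value in every sample, and 0 to 1 when 1 combination was left out. Over hours 0 were called, and 0 to 2 when 1 combination was left out. Without the replicate block of shared air pools, between the doses 0 were called (the Cd3g difference of -0.42 had adjusted p = 0.769), and over all genes the calls lower at the high dose went from 1 to 0. With the air pool as a random block in 1 fit of all samples, the calls of the 5 genes against air stayed at 1 and 5, and the genes lower at the low dose went from 58 to 98. Hours and weeks were not refitted without the block. Over all genes, the calls lower at the low dose ranged from 0 to 98 (58 in the main setting), at the high dose from 1 to 314 (307), and over hours from 19 to 88 (64). Testing each of 5483 probes on its own called 448 probes lower at the high dose. Leaving out the Cd79b values held by 1 row was chosen after seeing the data. The cause of these shifts was not tested.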
